A study of Mus musculus with 24 samples.

Results

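The change between 3 and 8 h of B cell receptor stimulation was examined in splenic B cells in which the Nfatc1 gene was deleted. The comparison set the 3 arrays of NFATc1-deficient cells stimulated for 8 h (KO 8 h) against the 3 arrays of such cells stimulated for 3 h (KO 3 h), so 6 of the 24 arrays of the series. Members were chosen by genotype and hour alone, as the sample titles give them. The study put the same question to control B cells (WT 8 h and WT 3 h, 3 arrays each), and both genotypes were also sampled at 0 and 16 h. Its stated interest was what NFATc1 contributes to how B cells survive, work and suppress.

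KO 8 h and KO 3 h cells came from C57BL/6 mice of 6 to 8 weeks whose Nfatc1 gene had loxP sites around exon 3, crossed with mice that carry Cre under the Cd79a (mb-1) promoter. WT cells came from control mice of the same strain and age, and the labels do not say whether those carried Cre or the loxP allele. Spleen cells were treated with anti-IgM, which binds and clusters the B cell receptor, for the hours named (0 h cells were unstimulated), and B cells were then enriched with magnetic beads. Cd79a is switched on early in the B lineage, so the deletion preceded the mature cell, and the labels give no measure of cells that escaped it. The titles count replicates 1 to 3, described as biological, but do not say how many mice each holds.

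Clustering of the receptor raises calcium and activates kinases. Within the first hours immediate early genes are transcribed, among them Fos, Egr1 and Nr4a family members, followed by Myc and the genes by which the cell builds ribosomes. Calcium activates the phosphatase calcineurin, which sends NFAT factors into the nucleus, and NFATc1 is the family member that is itself induced in lymphocytes. Later hours bring growth in mass, metabolism and preparation for division. The interval of 3 to 8 h therefore lies between the early transcripts and the first S phase.

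All values below are log2 of MAS5 signals, where 1 unit is a 2-fold change, and differences are KO 8 h minus KO 3 h with the standard error (SE) of the fit. A gene was called at an adjusted p under 0.05 (limma, Benjamini-Hochberg over 14318 genes). "Rose" and "fell" are used of called genes. In RNA from a whole population, a gene expressed by fewer cells and a gene with less RNA per cell cannot be told apart.

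The arrays were scaled to one mean by the authors, so they carry no depth, and their number limits the precision. One array stood apart. KO 8 h replicate 2 had a 40th percentile of 6.235, against 5.511 to 5.742 on the other 5 arrays compared, so its dim probe sets read high. Counts without it are given where they move. Ms4a1, which encodes the B cell marker CD20, read 13.73, 13.99 and 14.18 in KO 8 h cells, against 13.87, 13.89 and 14.07 in KO 3 h cells, with the groups overlapping. The B cell receptor chain Cd79b was likewise above the 40th percentile on all 6 arrays. Among the other B cell markers, Cd22 (0.65) and Fcmr (0.54) rose with Cd79b, and Cd37 (-0.63) and Ebf1 (-1.49) fell. Leaving out 1 array ended the calls of Cd22 (KO 8 h replicate 2 or 3 or KO 3 h replicate 1 or 3) and Cd37 (KO 3 h replicate 1 or 2). The T cell list (7 of 12 measured) summed to 1142 to 1538 in KO 8 h cells, against 1032 to 1254 in KO 3 h cells. Cd3d, Cd3e and Cd3g lay under the 40th percentile on all 3 KO 8 h arrays, and Cd3g did so at 3 h. Macrophage markers summed to 2353 to 4780 at 8 h, against 2335 to 3724 at 3 h, and neutrophil markers to 514 to 2497, against 658 to 3120. Among the tested markers of T, NK, myeloid, dendritic, erythroid, platelet and stromal cells, 3 were called, all higher: Cd28 (1.38), Adgre1 (1.48) and Pecam1 (at least 1.57). Of these, 1 depended on single arrays, namely Pecam1 (KO 8 h replicate 1 or 3 or KO 3 h replicate 1). The called share was 14.3% of the T cell, 11.1% of the macrophage and 20.0% of the stromal list. It was 0.0% of the NK, neutrophil, dendritic, erythroid and platelet lists, beside 19.2% of all genes. Medians of these lists ran from -0.79 (NK) to 0.17 (stromal), beside 0.12 for all genes. The stromal and endothelial list (5 of 7 measured) summed to 560 to 668 in KO 8 h cells, against 212 to 455 in KO 3 h cells. The part of other cells in the results was not tested.

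Between 3 and 8 h, 2750 genes were called, which is 19.2% of those tested. Of the called genes, 1890 (13.2% of those tested) rose and 860 (6.01%) fell. At an unadjusted p under 0.05 there were 4296 (30%). The rising side depended on the scaling: with every array brought to one median, 1248 rose and 977 fell, a share of rising calls of 56.1% in place of 68.7%. Most changes were moderate, with a median of 0.76 among rising and -0.69 among falling genes. By the measured values, more than 2-fold changes were seen for 535 rising and 222 falling genes, and more than 4-fold for 80 and 43. With values under the 40th percentile raised to it, 25 rising and 21 falling genes stayed above 4-fold. The median over all genes was 0.12. On 4646 genes (32.4%) the 3 KO 8 h arrays and the 3 KO 3 h arrays did not overlap, and 2658 of the called genes were among them. When each of the 6 arrays was left out in turn, 1430 of the 2750 genes kept their call in every fit and no called gene changed sign.

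**Figure D1:**
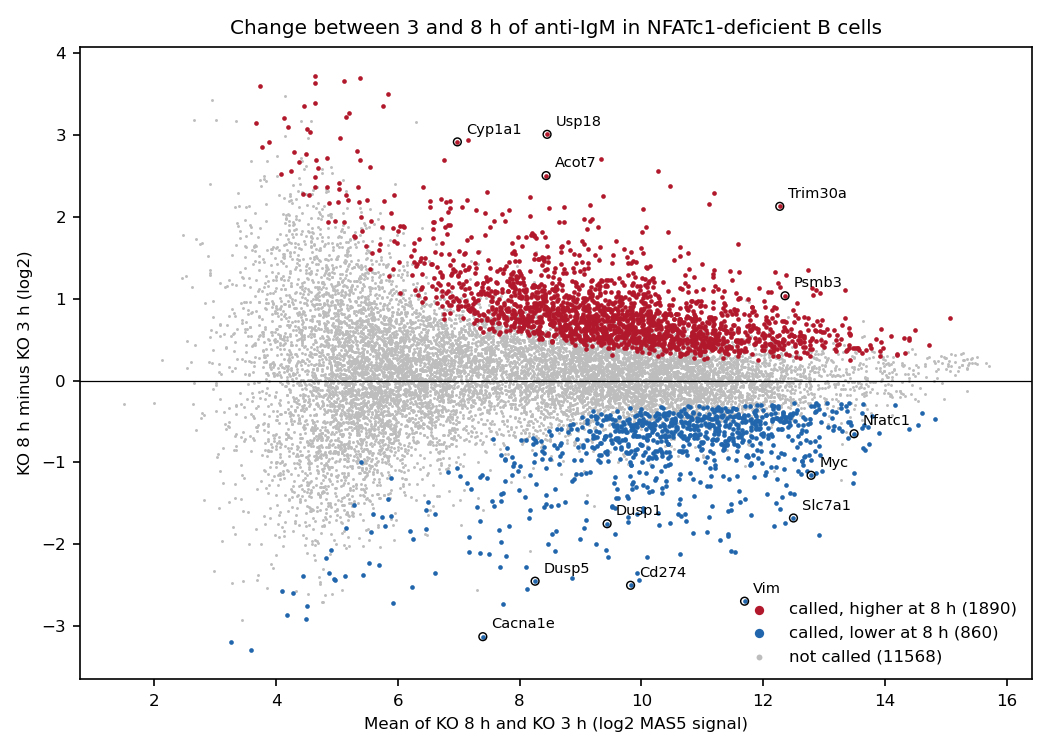
Each point is a gene, with its mean over KO 8 h and KO 3 h on the x axis (log2 MAS5 signal) and KO 8 h minus KO 3 h on the y axis (log2). Of 14318 genes, 1890 were called higher at 8 h, 860 lower and 11568 were not called; ringed genes are described in the text.

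Nfatc1 itself was read by 5 probe sets, and nothing used here says whether any of them lies in the deleted exon, so they do not check the deletion. On the brightest, Nfatc1 read 13.07, 13.28 and 13.16 in KO 8 h cells, against 13.75, 13.95 and 13.76 in KO 3 h cells. The arrays did not overlap, with a difference of -0.65 (SE 0.126, adjusted p = 0.000725). The other 4 Nfatc1 probe sets differed by -0.08, -0.27, -0.29 and 0.26, and none was called when every probe set was tested. In WT cells the brightest fell as well, with a difference of -0.77 (SE 0.126, adjusted p = 0.000193).

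The NFAT and calcineurin list moved both ways: of 18 measured, Nfatc1 included, 3 rose, 4 fell and 11 did not pass. This is a called share of 38.9%, beside 19.2% of all genes. Rcan3, a member of the calcineurin regulator family, read 8.17, 8.23 and 8.02 in KO 8 h cells, against 6.48, 7.18 and 7.05 in KO 3 h cells (1.24, SE 0.289, adjusted p = 0.00366). Ppp3cc, a catalytic subunit of calcineurin, rose by 0.84 (SE 0.184, adjusted p = 0.00208), and Nfatc3, another NFAT factor, by 0.27 (SE 0.096, adjusted p = 0.0486). All 3 were clear of their 3 h arrays. Beside Nfatc1, those that fell were Akap5, a scaffold that anchors calcineurin (-0.97, SE 0.286, adjusted p = 0.0183), and Cabin1, a calcineurin inhibitor (-0.56, SE 0.165, adjusted p = 0.0176). Fkbp1a, the FK506-binding protein, fell by 0.35. Rcan1, a calcineurin inhibitor that NFAT induces, read 8.95, 8.34 and 8.97 in KO 8 h cells, against 8.77, 8.80 and 8.77 in KO 3 h cells, with the groups overlapping (-0.02, SE 0.183, adjusted p = 0.956). When 1 array was left out, calls ended for Nfatc3 (KO 8 h replicate 1 or 2 or KO 3 h replicate 1 or 2 or 3), Akap5 (KO 8 h replicate 3 or KO 3 h replicate 1 or 2), Cabin1 (KO 8 h replicate 2 or 3 or KO 3 h replicate 1 or 2) and Fkbp1a (each of the 6). The list then had 2 rising and 1 falling gene without KO 3 h replicate 1 or without KO 3 h replicate 2, and 3 and 1 without KO 8 h replicate 3.

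The immediate early genes and the feedback regulators that accompany them had the lowest median of the lists plotted here. Of 41 measured, none rose, 18 fell and 23 did not pass, with a median of -0.85 beside 0.12 for all genes. Dusp1, a phosphatase that switches off MAP kinases, read 8.45, 8.63 and 8.61 in KO 8 h cells, against 10.63, 10.16 and 10.15 in KO 3 h cells. This was a 3.36-fold drop (-1.75, SE 0.375, adjusted p = 0.00182) with no overlap. Zfp36, which binds AU-rich mRNA and hastens its decay, read 10.56, 10.77 and 10.93 in KO 8 h cells, against 11.82, 12.12 and 11.82 in KO 3 h cells (-1.17, SE 0.243, adjusted p = 0.00144). Nr4a3, an orphan nuclear receptor, read 10.78, 10.82 and 9.82 in KO 8 h cells, against 12.77, 12.38 and 11.99 in KO 3 h cells (-1.90, SE 0.44, adjusted p = 0.00333). In each of these the highest 8 h array stayed below the lowest 3 h array. Klf4, a factor of resting lymphocytes, fell by 1.88 (SE 0.468, adjusted p = 0.00593), and Csrnp1, a nuclear protein induced by AXIN1, fell by 1.26 (SE 0.225, adjusted p = 0.000357).

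AP-1 genes took part unevenly. Fos read 7.85, 8.15 and 8.01 in KO 8 h cells, against 10.75, 9.10 and 8.63 in KO 3 h cells (-1.49, SE 0.408, adjusted p = 0.0116), with KO 3 h replicate 1 well above its fellows. Fosl1 fell by 1.68 (SE 0.579, adjusted p = 0.0435) and Atf3 fell by 2.000 (SE 0.668, adjusted p = 0.0375). Jun read 7.71, 7.53 and 8.07 in KO 8 h cells, against 8.32, 8.51 and 8.42 in KO 3 h cells, without overlap, and was not called (adjusted p = 0.238), nor were Junb (-0.71) or Jund (0.33). Of the Egr family, Egr1 fell (-0.73, SE 0.234, adjusted p = 0.0286), while Egr2 (-0.44) and Egr3 (-0.30) did not pass. The MAP kinase phosphatases Dusp2 (-1.04), Dusp5 (by at least 2.10) and Dusp10 (-1.05) fell with Dusp1, whereas Dusp4 (-0.94) and Dusp6 (-0.41) did not pass. Dusp5 had its lowest value, 5.19, on KO 8 h replicate 2 and 8.26 and 7.64 on the other KO 8 h arrays. Calls ended on leaving out 1 array for Fos (KO 3 h replicate 1), Fosl1 (KO 8 h replicate 2 or 3 or KO 3 h replicate 1 or 2), Atf3 (KO 8 h replicate 1 or 3 or KO 3 h replicate 1 or 2 or 3), Egr1 (KO 8 h replicate 1 or 3 or KO 3 h replicate 1 or 2), Dusp5 (KO 8 h replicate 2) and Dusp10 (KO 8 h replicate 1). Without KO 3 h replicate 1 the list had 10 falling genes.

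The courses of these genes in KO cells, given for 0, 3, 8 and 16 h in turn, differed before 3 h. Dusp1 averaged 12.97, 10.31, 8.56 and 7.59. Nr4a3 averaged 6.67, 12.38, 10.48 and 10.67, and Egr1 12.06, 13.22, 12.49 and 12.74. The first was highest in unstimulated cells and the other 2 at 3 h. At 0 h the list mean of KO replicate 1 was 9.54, below the 10.98 and 11.08 of the other arrays.

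Of 15 measured genes of NF-kB subunits and regulators, 1 rose, 3 fell and 11 did not pass, with a median of -0.33. This is a called share of 26.7%, beside 19.2% of all genes. Traf1, an adaptor of TNF receptors, read 10.85, 10.41 and 10.22 in KO 8 h cells, against 12.15, 11.38 and 11.79 in KO 3 h cells (-1.28, SE 0.218, adjusted p = 0.000221). Tnfaip3, which encodes the deubiquitinase A20, fell by 0.85 (SE 0.222, adjusted p = 0.0081), and Tank, a regulator of TRAF signalling, fell by 0.94 (SE 0.189, adjusted p = 0.000974). Ikbke, a kinase of the innate response, rose by 1.56 (SE 0.318, adjusted p = 0.00119). The subunits Nfkb2 (0.05), Rel (-0.33), Rela (-0.40) and Relb (-0.37) were not called, nor were the inhibitors Nfkbia (-0.02), Nfkbib (-0.33), Nfkbie (-0.35) and Nfkbiz (-0.66). A single left-out array ended the call of Tnfaip3 (KO 3 h replicate 1).

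Several secreted factors fell. Of 21 cytokine and chemokine genes measured, none rose, 5 fell and 16 did not pass (median -0.28). The called share was 23.8%, beside 19.2% of all genes. Ccl4, which attracts T cells and monocytes, read 9.28, 9.26 and 9.12 in KO 8 h cells, against 11.12, 10.58 and 10.76 in KO 3 h cells (-1.60, SE 0.358, adjusted p = 0.00261). Ccl3, its neighbour in function, fell by 1.63 (SE 0.501, adjusted p = 0.0239). Lta, which encodes lymphotoxin alpha, read 6.04, 4.26 and 6.01 in KO 8 h cells, against 8.03, 8.02 and 7.31 in KO 3 h cells, a difference of -2.35 (SE 0.566, adjusted p = 0.00464). As 1 of its 8 h arrays lay under the 40th percentile, the fall was at least 1.69. Il10, the suppressive cytokine of regulatory B cells, read 6.39, 6.83 and 6.07 in KO 8 h cells, against 7.57, 7.82 and 7.11 in KO 3 h cells (-1.07, SE 0.369, adjusted p = 0.0446). Tnf fell by 1.01 (SE 0.327, adjusted p = 0.0326), although KO 3 h replicate 3 lay between the 8 h arrays. These calls were lost when an array was removed for Ccl3 (KO 8 h replicate 2 or 3 or KO 3 h replicate 1), Il10 (KO 8 h replicate 1 or 3 or KO 3 h replicate 1 or 2) and Tnf (KO 8 h replicate 2 or 3 or KO 3 h replicate 1 or 2). The list had 2 falling genes without KO 3 h replicate 1 or without KO 8 h replicate 3, and 3 without replicate 2 of KO 8 h or of KO 3 h.

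Surface molecules by which B cells deal with T cells split in 2 directions. Of 23 activation and costimulation genes, 4 rose, 6 fell and 13 did not pass. Cd274, which encodes the inhibitory ligand PD-L1, read 8.79, 8.64 and 8.28 in KO 8 h cells, against 11.23, 11.11 and 10.88 in KO 3 h cells, a 5.67-fold drop (-2.50, SE 0.237, adjusted p = 3.44e-07). Pdcd1lg2, the second ligand of PD-1, fell by 1.25 (SE 0.185, adjusted p = 6.16e-05). The costimulator Cd86 read 12.33, 12.20 and 11.89 in KO 8 h cells, against 13.23, 13.10 and 13.05 in KO 3 h cells (-0.99, SE 0.219, adjusted p = 0.00245), and the adhesion receptor Cd44 fell by 1.13 (SE 0.219, adjusted p = 0.000784). None of these 4 overlapped between the groups. Cd83 (-0.59) and Cd40 (-0.66) fell less. On the rising side stood Havcr1, which encodes TIM-1, a marker of regulatory B cells (1.15, SE 0.276, adjusted p = 0.00446), Tnfrsf18, which encodes GITR (1.13, SE 0.215, adjusted p = 0.000602), the death receptor Fas (0.96, SE 0.3, adjusted p = 0.0255) and the inhibitory ligand Cd200 (0.84, SE 0.262, adjusted p = 0.0253). Cd69 read 11.64, 12.01 and 11.21 in KO 8 h cells, against 12.68, 13.06 and 12.44 in KO 3 h cells, without overlap, and was not called (adjusted p = 0.0731). Calls did not survive the loss of 1 array for Cd83 (KO 8 h replicate 1 or 3 or KO 3 h replicate 1), Cd40 (KO 8 h replicate 2 or 3 or KO 3 h replicate 1), Fas (KO 8 h replicate 1 or 2 or KO 3 h replicate 1 or 2) and Cd200 (KO 8 h replicate 1 or KO 3 h replicate 1 or 3).

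**Figure D2:**
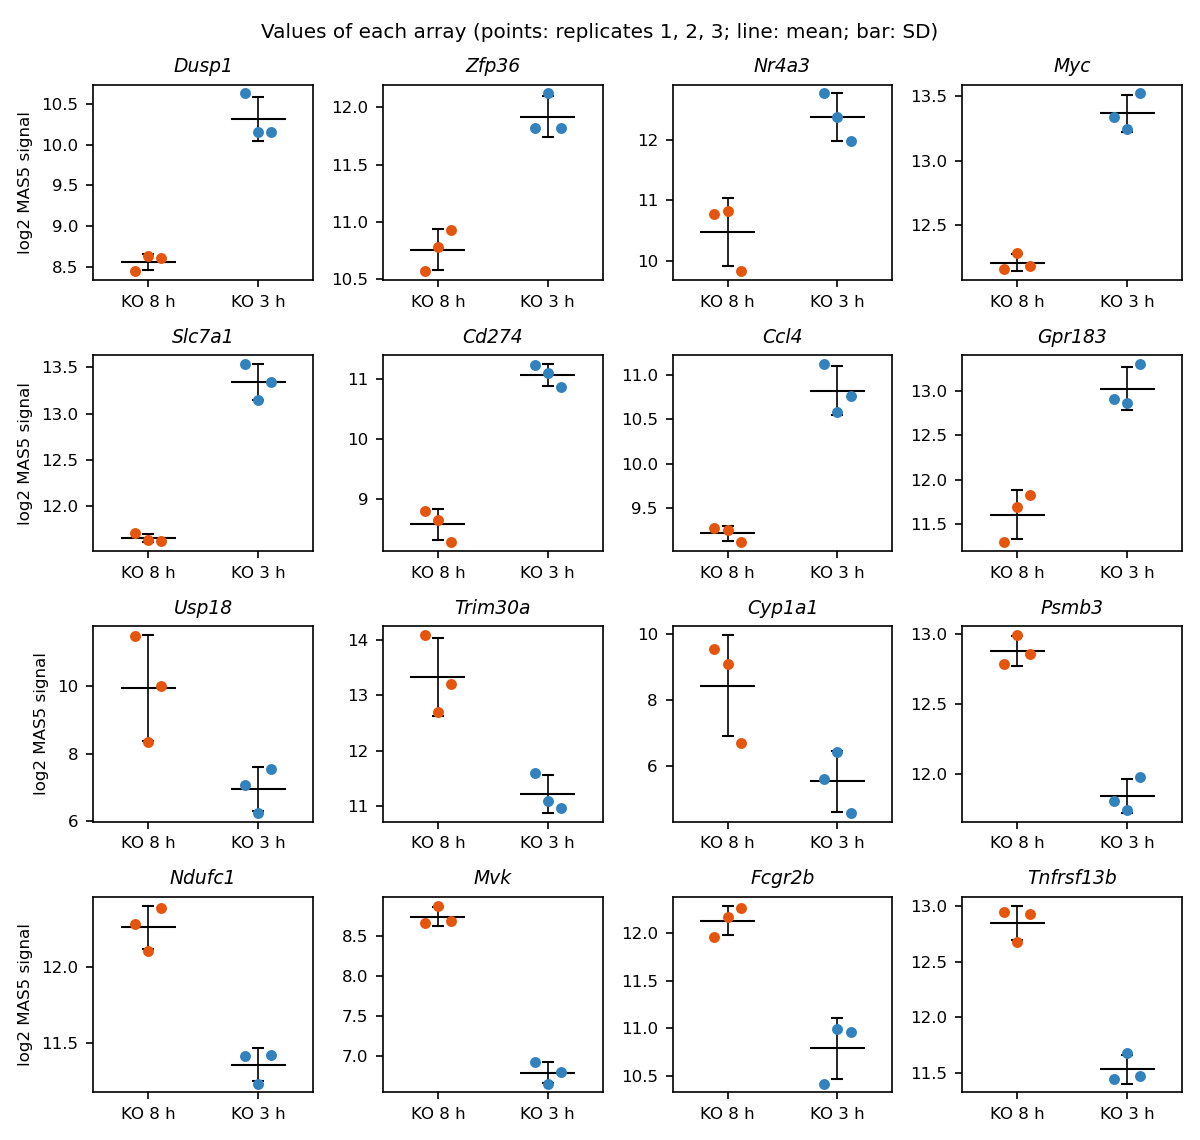
Values of 16 genes on each array (y axis, log2 MAS5 signal, scaled to each gene), KO 8 h left of KO 3 h, with the mean as a line and the SD (n = 3) as a bar. The first 8 genes are lower at 8 h and the last 8 higher, with no overlap in any panel.

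Several receptors that guide B cells to and within the follicle fell. Of 19 homing and lipid receptor genes, 7 fell, 4 rose and 8 did not pass (median -0.52). Gpr183, which encodes the oxysterol receptor EBI2, read 11.30, 11.69 and 11.83 in KO 8 h cells, against 12.92, 12.86 and 13.30 in KO 3 h cells (-1.42, SE 0.234, adjusted p = 0.000167). S1pr3, a sphingosine phosphate receptor of marginal zone cells, fell by 1.28 (SE 0.227, adjusted p = 0.000327), and S1pr1, needed to leave lymphoid tissue, fell by 0.94 (SE 0.199, adjusted p = 0.00169). Cxcr5, the follicle-homing receptor, read 11.38, 11.24 and 11.24 in KO 8 h cells, against 12.42, 12.23 and 12.27 in KO 3 h cells (-1.02, SE 0.181, adjusted p = 0.000334). All 3 KO 8 h arrays of each lay below the 3 h arrays. Itga4, the alpha4 integrin chain, rose by 1.31 (SE 0.247, adjusted p = 0.000584) and P2ry10, a lysophosphatidylserine receptor, by 0.68 (SE 0.138, adjusted p = 0.00113). Cxcr4, the receptor for CXCL12, fell by 1.15 (SE 0.385, adjusted p = 0.0386). Among marginal zone markers, 3 of 9 fell, including the scavenger receptor Cd36 (-1.66, SE 0.279, adjusted p = 0.000208), and 1 rose. The summed signal of that list was 15591 to 20419 in KO 8 h cells, against 24395 to 29898 in KO 3 h cells. That of the follicular list (5 of 6 measured) was 10424 to 10598, against 15676 to 17116. Only 1 follicular member was called, Cxcr5 (20.0%, near the 19.2% of all genes), though none had a positive difference. Whether the share of these B cell subsets changed was not tested. One named call depended on single arrays, that of Cxcr4 (KO 8 h replicate 1 or 2 or KO 3 h replicate 1 or 3).

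Myc fell while its partners parted. Myc read 12.16, 12.28 and 12.18 in KO 8 h cells, against 13.34, 13.24 and 13.52 in KO 3 h cells, a 2.23-fold drop (-1.16, SE 0.297, adjusted p = 0.00743), with all arrays apart. Mnt, a repressor that competes with MYC for its partner MAX, read 9.80, 10.04 and 9.90 in KO 8 h cells, against 11.40, 11.45 and 11.24 in KO 3 h cells (-1.45, SE 0.194, adjusted p = 1.92e-05). A dimmer Mnt probe set differed by 1.17 and was not called. Mga fell by 0.71. The MAX partners Mxd4 (1.17, SE 0.253, adjusted p = 0.0019) and the related factor Mlx (0.68, SE 0.178, adjusted p = 0.00897) rose, and Max itself did not pass (-0.07). A second Mxd4 probe set rose by 2.32, while others differed by -0.05 and -0.63 and were not called. In all, 2 of 12 genes of the network rose, 3 fell and 7 did not pass. Calls that rested on single arrays were those of Mga (KO 8 h replicate 2 or KO 3 h replicate 1) and Mlx (KO 8 h replicate 3 or KO 3 h replicate 1). Without KO 3 h replicate 1 the network had 1 rising and 2 falling genes.

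Many genes for making ribosomes fell slightly. Of 53 ribosome biogenesis genes, 21 fell, 1 rose and 31 did not pass, with a median of -0.38 and a range of -0.91 to 0.44. Ddx10, a nucleolar helicase, read 10.99, 10.91 and 10.93 in KO 8 h cells, against 11.78, 11.63 and 11.73 in KO 3 h cells (-0.77, SE 0.134, adjusted p = 0.000274). Polr1b, a subunit of RNA polymerase I, fell by 0.72 (SE 0.166, adjusted p = 0.0031), and Nolc1, a nucleolar phosphoprotein, fell by 0.68 (SE 0.171, adjusted p = 0.00637). Rrp1b and Ppan, both of ribosomal RNA processing, fell too (-0.91 and -0.73). Nop10, a part of the pseudouridylation complex, was the one that rose (0.44, SE 0.107, adjusted p = 0.00542). From 0 to 3 h, a comparison that shares the 3 h arrays, all 53 were called higher with a median of 1.75 (38.3% of all genes were called over that interval). Over 0, 3, 8 and 16 h in KO cells, the list mean stood at 10.39, 12.15, 11.83 and 11.87. Without KO 3 h replicate 1 the fall was called for 11 genes, and without KO 8 h replicate 3 for 13. Among the named genes the call was lost for Rrp1b (KO 8 h replicate 2 or 3 or KO 3 h replicate 1).

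Few other genes of protein synthesis passed the test. Of 21 translation factors, 1 fell, Eif1a (-0.53, SE 0.152, adjusted p = 0.0152), so 4.8% were called beside 19.2% of all genes. Among 24 cytosolic ribosomal proteins and 8 subunits of the TRiC chaperonin, none was called (0.0% of each). The loss of 1 array ended the call of Eif1a (KO 3 h replicate 3). Amino acid supply moved in both directions, with 4 of 23 genes rising, 6 falling and 13 not passing. Slc7a1, a transporter of cationic amino acids, read 11.71, 11.64 and 11.63 in KO 8 h cells, against 13.53, 13.14 and 13.34 in KO 3 h cells, a 3.2-fold drop (-1.68, SE 0.144, adjusted p = 9.42e-08). Slc7a5, the light chain of the large neutral amino acid transporter, read 9.84, 10.24 and 9.53 in KO 8 h cells, against 11.55, 11.45 and 11.13 in KO 3 h cells (-1.51, SE 0.25, adjusted p = 0.000179), and its partner Slc3a2 fell by 0.72. Against these, Phgdh and Psph, which make serine, rose by 1.19 (SE 0.181, adjusted p = 7.3e-05) and 1.19 (SE 0.232, adjusted p = 0.000789). Bcat1, which acts on branched-chain amino acids, rose by 1.81 (SE 0.4, adjusted p = 0.00229). Its other probe sets differed by 1.64 and 0.02 and were not called. Mthfd2, a mitochondrial folate enzyme, fell by 0.72 (SE 0.156, adjusted p = 0.00198). A left-out array took the call from Slc3a2 (KO 8 h replicate 1 or 3 or KO 3 h replicate 1 or 2).

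**Figure D3:**
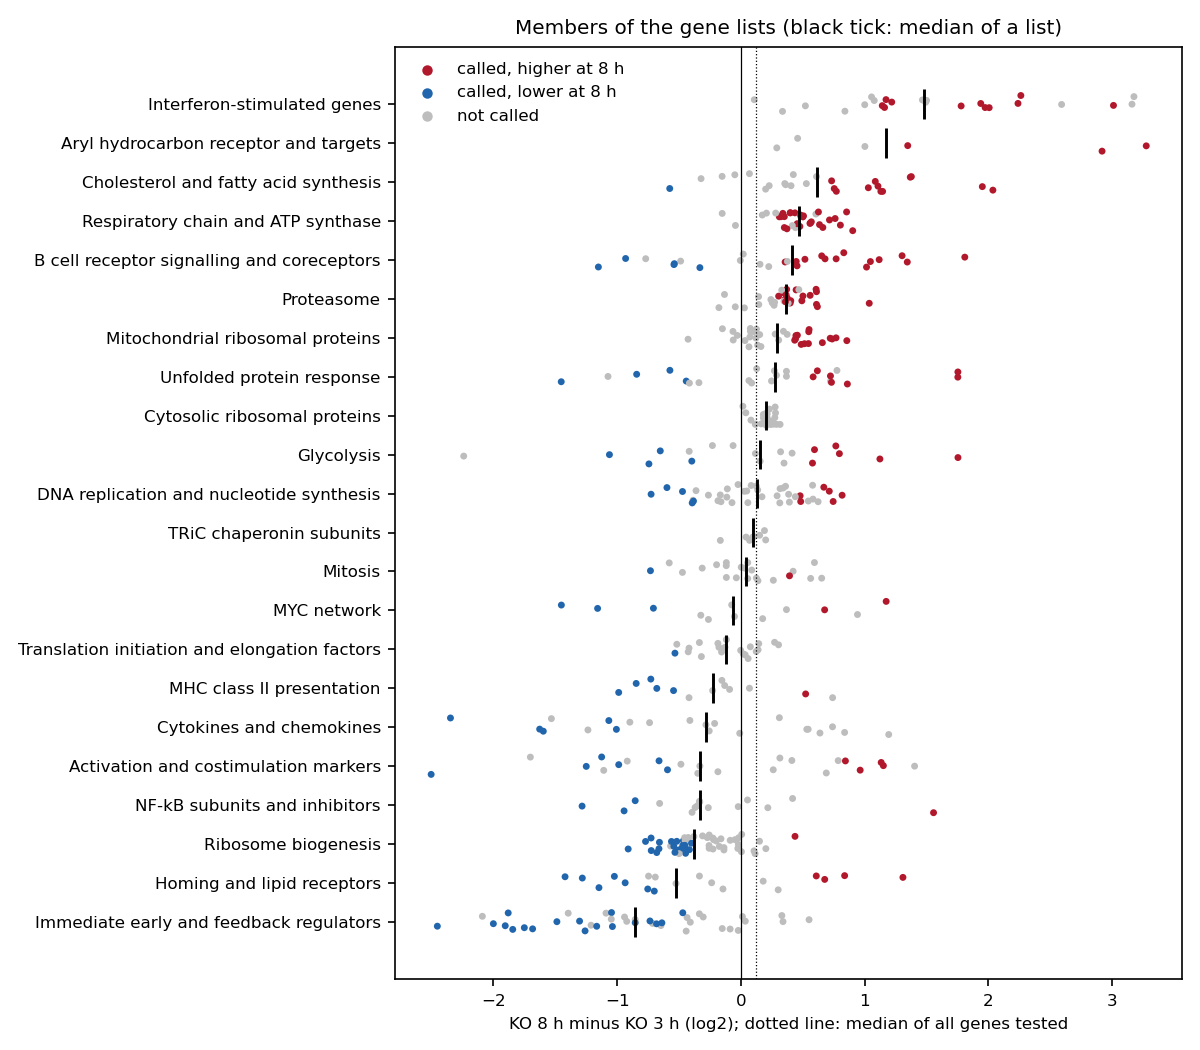
Each point is a tested member of a gene list (y axis, lists ordered by their median), with KO 8 h minus KO 3 h on the x axis (log2). Medians ran between -0.85 for immediate early genes and 1.48 for interferon-stimulated genes, beside 0.12 for all genes.

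Many mitochondrial and proteasomal genes rose by small amounts. Of 34 genes of the respiratory chain and ATP synthase, 25 rose, none fell and 9 did not pass (median 0.47, range -0.15 to 0.90). Ndufc1, a subunit of complex I, read 12.29, 12.11 and 12.39 in KO 8 h cells, against 11.42, 11.24 and 11.43 in KO 3 h cells (0.90, SE 0.116, adjusted p = 1.26e-05). Uqcrq of complex III read 12.53, 12.50 and 12.54 in KO 8 h cells, against 11.81, 11.57 and 11.91 in KO 3 h cells (0.76, SE 0.126, adjusted p = 0.000177). The 8 h arrays of both lay above every 3 h array. Dimmer Uqcrq probe sets differed by -0.06, -1.20 and -0.53, and none was called. Ndufv1, another complex I subunit, rose by 0.80 (SE 0.123, adjusted p = 7.91e-05) and Cox7a2 of complex IV by 0.57 (SE 0.11, adjusted p = 0.000702). Sdhc of complex II rose by 0.85. Removing 1 array ended the call of Sdhc (KO 8 h replicate 1 or KO 3 h replicate 3). Of 34 mitochondrial ribosomal proteins, 14 rose and none fell (median 0.29), with Mrpl42 (0.86, SE 0.157, adjusted p = 0.000453) and Mrpl11 (0.77, SE 0.155, adjusted p = 0.00104) ahead of Mrps28 (0.72) and Mrpl34 (0.74).

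Of 32 proteasome genes, 18 rose, none fell and 14 did not pass (median 0.36). Psmb3, a subunit of the catalytic core, read 12.78, 12.99 and 12.86 in KO 8 h cells, against 11.81, 11.74 and 11.98 in KO 3 h cells, a 2.05-fold rise (1.04, SE 0.102, adjusted p = 5.61e-07). Psma1 rose by 0.62 (SE 0.0957, adjusted p = 9.19e-05), Psmd14, the deubiquitinase of the lid, by 0.61 (SE 0.0942, adjusted p = 9.24e-05), and Psmc3, an ATPase of the base, by 0.61 (SE 0.106, adjusted p = 0.000279). The assembly chaperone Psmg1 rose by 0.61. Dimmer Psma1 probe sets differed by -0.32, 0.21 and 0.18, and none was called. The counts of these 3 lists depended on scaling and on single arrays. With arrays at one median, 14 respiratory chain, 7 mitochondrial ribosomal and 6 proteasome genes were called, all higher. Without KO 8 h replicate 1 there were 15 respiratory chain and 9 mitochondrial ribosomal genes, without KO 3 h replicate 3 there were 16 respiratory chain genes, and without KO 8 h replicate 3 there were 11 proteasome genes.

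Genes of glycolysis moved in both directions. Of 19 genes, 6 rose, 4 fell and 9 did not pass. Aldoc, an aldolase, read 8.50, 8.85 and 9.22 in KO 8 h cells, against 7.23, 7.12 and 6.96 in KO 3 h cells (1.75, SE 0.267, adjusted p = 7.85e-05). Eno3, an enolase, rose by 1.12 (SE 0.223, adjusted p = 0.000904), Pkm, which encodes pyruvate kinase, by 0.80 (SE 0.127, adjusted p = 0.000119), and Pgk1 by 0.58 (SE 0.11, adjusted p = 0.000628). The glucose transporter Slc2a3 (-0.65, SE 0.161, adjusted p = 0.00556), hexokinase 2 (Hk2, -0.74, SE 0.2, adjusted p = 0.01), Pgam1 (-0.40) and the lactate transporter Slc16a1 (-1.06, SE 0.327, adjusted p = 0.0237) fell. Single arrays decided the calls of Pgam1 (KO 8 h replicate 2 or 3 or KO 3 h replicate 1 or 2 or 3) and Slc16a1 (KO 8 h replicate 2 or KO 3 h replicate 1 or 3).

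Many genes of sterol and fatty acid synthesis rose. Of 25 genes, 12 rose, 1 fell and 12 did not pass, with a median of 0.61. Mvk, mevalonate kinase, read 8.66, 8.88 and 8.68 in KO 8 h cells, against 6.93, 6.65 and 6.79 in KO 3 h cells, a 3.86-fold rise (1.95, SE 0.326, adjusted p = 0.000194). Elovl6, an elongase of fatty acids, read 8.82, 8.85 and 8.51 in KO 8 h cells, against 6.82, 6.997 and 6.26 in KO 3 h cells (2.04, SE 0.256, adjusted p = 1.01e-05). Dhcr7, the last enzyme of cholesterol synthesis, rose by 1.38 (SE 0.243, adjusted p = 0.000316), Nsdhl, an enzyme of sterol demethylation, by 1.03 (SE 0.138, adjusted p = 2.01e-05), and Acly, which makes cytosolic acetyl-CoA, by 0.77 (SE 0.0889, adjusted p = 3.52e-06). Scd2, a fatty acid desaturase, rose by 1.37 (SE 0.297, adjusted p = 0.00202), whereas its relative Scd1 fell by 0.58 (SE 0.147, adjusted p = 0.00726). The exporters of cholesterol fell. Abca1 read 8.12, 8.05 and 8.93 in KO 8 h cells, against 10.03, 10.03 and 11.50 in KO 3 h cells (-2.15, SE 0.419, adjusted p = 0.000778), and Abcg1 read 5.43, 6.73 and 7.45 in KO 8 h cells, against 8.40, 8.53 and 9.52 in KO 3 h cells, a drop of at least 2.25 with 1 of the 8 h arrays under the 40th percentile (adjusted p = 0.00264 for the measured values). By 16 h, in a comparison that shares the 8 h arrays and in which 4.66% of genes were called, 12 of the 25 synthesis genes were lower than at 8 h and none higher. Mean levels of the list were 9.59, 10.60, 11.26 and 10.63 over 0, 3, 8 and 16 h.

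Several chaperones of the endoplasmic reticulum rose, and some stress factors fell. Of 24 genes of the unfolded protein response, 7 rose, 4 fell and 13 did not pass. Pdia4, a disulfide isomerase, read 9.004, 8.72 and 9.21 in KO 8 h cells, against 7.30, 7.14 and 7.24 in KO 3 h cells (1.75, SE 0.282, adjusted p = 0.000129). Sdf2l1, a partner of chaperones there, rose by 1.75 (SE 0.407, adjusted p = 0.00347). A dimmer Pdia4 probe set differed by -0.38 and was not called. Pdia6 rose by 0.86 (SE 0.113, adjusted p = 1.7e-05) and Hsp90b1, the chaperone GRP94, by 0.62 (SE 0.134, adjusted p = 0.00195). The transcription factors Atf4 (-0.57, SE 0.174, adjusted p = 0.022) and Ddit3 (-0.84, SE 0.186, adjusted p = 0.00232) fell, as did the co-chaperone Dnajb9 (-1.45, SE 0.35, adjusted p = 0.00463). One call here needed all arrays, being lost for Atf4 (KO 8 h replicate 3 or KO 3 h replicate 1 or 2).

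Inducible HSP70 fell and the constitutive form rose. Hspa1a read 7.18, 7.18 and 6.17 in KO 8 h cells, against 10.61, 9.35 and 8.23 in KO 3 h cells (-2.55, SE 0.759, adjusted p = 0.0196). Hspa1b read 7.86, 7.82 and 7.27 in KO 8 h cells, against 11.002, 10.01 and 9.19 in KO 3 h cells (-2.42, SE 0.635, adjusted p = 0.00865). The groups did not overlap for either. The pair are near-identical genes, so their probe sets may read each other. At 3 h both were highest on replicate 1 and lowest on replicate 3. Hspa8, the constitutive form, rose by 0.77 (SE 0.14, adjusted p = 0.000427), Hspe1, the mitochondrial HSP10, by 0.64 (SE 0.118, adjusted p = 0.000499), and Trap1, the mitochondrial HSP90, by 0.73 (SE 0.116, adjusted p = 0.000116). In total 4 of 15 heat shock genes rose and 2 fell. Without KO 8 h replicate 2 the counts were 8 and 2, and without KO 3 h replicate 1 they were 3 and 0. Of the inducible pair, calls were lost for Hspa1a (KO 8 h replicate 3 or KO 3 h replicate 1) and Hspa1b (KO 3 h replicate 1).

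Genes induced by interferon were prominent among those that rose most. Of 24 interferon-stimulated genes, 11 rose, none fell and 13 did not pass, with a median of 1.48 and every difference positive. With values under the 40th percentile raised to it the median was 1.34. Among the 15 called genes with the largest rise by that measure were genes known as interferon-induced, namely Usp18, Ifi213, Trim30d, Trim34a, Ifi209, Rtp4, Mx1, Ifi47, Slfn8, Trim30a and Oas1b, of which the list itself holds Usp18, Mx1 and Rtp4. Trim30, Ifi200, Schlafen and Oas1 genes belong to clusters of close copies, so one probe set may read several.

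The bases before the start of 3 such genes are shown because they hold the sequence to which interferon-activated factors are known to bind. They are the 250 bases upstream, from RefSeq on GRCm38.p6, 5′ to 3′ on the gene's strand, with the interferon-stimulated response element in capitals, searched on either strand as GAAA, 2 free bases and GAAA. Trim30d lies at chr7:104507850-104508099, Ifi213 at chr1:173599273-173599522 and Oas1a at chr5:120907526-120907775, all on the minus strand.
Trim30d: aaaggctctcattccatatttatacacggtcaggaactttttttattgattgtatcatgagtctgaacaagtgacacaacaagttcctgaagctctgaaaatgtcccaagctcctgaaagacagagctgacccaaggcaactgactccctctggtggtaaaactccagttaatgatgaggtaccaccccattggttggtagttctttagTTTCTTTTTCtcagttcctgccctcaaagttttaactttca
Ifi213: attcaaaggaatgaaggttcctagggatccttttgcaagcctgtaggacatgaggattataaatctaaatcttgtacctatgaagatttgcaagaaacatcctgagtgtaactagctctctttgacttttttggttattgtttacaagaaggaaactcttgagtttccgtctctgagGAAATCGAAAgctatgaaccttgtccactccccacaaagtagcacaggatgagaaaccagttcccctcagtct
Oas1a: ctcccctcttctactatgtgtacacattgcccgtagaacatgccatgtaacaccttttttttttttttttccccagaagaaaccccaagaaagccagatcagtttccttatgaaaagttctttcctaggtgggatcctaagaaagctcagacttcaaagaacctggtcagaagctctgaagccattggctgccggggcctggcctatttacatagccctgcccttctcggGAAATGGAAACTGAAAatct
Counted from the transcription start, the first matching base lies at -41 in Trim30d, where the match is on the other strand, at -73 in Ifi213, and at -20 and -14 in Oas1a, whose 2 matches overlap. The matches in Ifi213 and Oas1a also overlap GGAAA, the core bound by NFAT. This motif was searched after the values had been seen. It was in 9 of the 19 list members with a promoter in the table (47.4%), in 4.56% of rising genes, 2.67% of falling genes and 3.08% of all tested genes with one. Among called list members it was in 3 of 7, and among the 15 highest genes in 4 of 11 with a promoter. Among the 15 lowest genes it was in 2 of 14 (14.3%), Plk2 and Arhgap15. Ifi209, Ifi47 and Trim34a held no match. All of these are counts of letter matches and say nothing of binding.

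Usp18, which removes ISG15 and dampens interferon receptor signalling, read 11.50, 8.35 and 10.02 in KO 8 h cells, against 7.07, 6.24 and 7.53 in KO 3 h cells, an 8.06-fold rise (3.01, SE 0.799, adjusted p = 0.00935). Ifi213, of the family of DNA-sensing PYHIN proteins, read 11.22, 9.75 and 11.08 in KO 8 h cells, against 7.80, 8.003 and 8.14 in KO 3 h cells (2.71, SE 0.613, adjusted p = 0.00286). Trim30d read 12.48, 10.45 and 11.72 in KO 8 h cells, against 9.28, 8.78 and 8.91 in KO 3 h cells (2.56, SE 0.497, adjusted p = 0.000769). The groups did not overlap in any of the 3, and KO 8 h replicate 2 read lowest of the 8 h arrays in each. Stat2, a subunit of the factor ISGF3, read 10.04, 9.23 and 9.83 in KO 8 h cells, against 7.77, 7.54 and 7.96 in KO 3 h cells (1.94, SE 0.358, adjusted p = 0.000485). Its partner Irf9 rose by 1.14 (SE 0.305, adjusted p = 0.00981) and Oas2, an antiviral synthetase, by 1.78 (SE 0.372, adjusted p = 0.00144). Oas1a rose by 1.17 (SE 0.297, adjusted p = 0.00673), Ifit2 by 2.01, Mx1 by 2.24 and Rtp4 by 2.26. Of the other cluster genes, Trim30a rose by 2.13, Trim34a by 2.37, Ifi209 by 2.30, Ifi47 by 2.15 and Slfn8 by 2.15.

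The spread followed the replicate. Replicate 1 was the highest KO 8 h array for 23 of the 24 listed genes and replicate 2, the array of high background, the lowest for 22. The list means were 9.97, 8.06 and 8.87 on KO 8 h replicates 1 to 3, against 7.65, 7.17 and 7.31 on KO 3 h replicates 1 to 3. Without KO 8 h replicate 2, 17 genes rose, and without KO 8 h replicate 1, 3 did. In WT cells the means were 9.66, 7.71 and 9.56 at 8 h, against 8.10, 7.15 and 7.22 at 3 h, again with replicate 2 lowest. Of the genes named, a left-out array ended the call for Usp18 (KO 8 h replicate 1), Irf9 (KO 8 h replicate 1 or 3), Oas1a (KO 8 h replicate 1), Ifit2 (KO 8 h replicate 1), Mx1 (KO 8 h replicate 1 or KO 3 h replicate 2 or 3) and Rtp4 (KO 8 h replicate 1 or 3 or KO 3 h replicate 2 or 3). Over 0, 3, 8 and 16 h the KO list mean took the values 9.19, 7.38, 8.97 and 7.42. From 0 to 3 h, 16 of the 24 were called lower, where 21.7% of all genes were, and from 8 to 16 h, 7 were, where 2.26% were. Both intervals share arrays with the one described.

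Some targets of the aryl hydrocarbon receptor, a sensor of aromatic compounds, rose. Cyp1a1, its best known target, read 9.55, 9.08 and 6.67 in KO 8 h cells, against 5.58, 6.42 and 4.56 in KO 3 h cells. As 2 of the 3 h arrays lay under the 40th percentile, the rise was at least 2.60 (adjusted p = 0.00899 for the measured values). Ahrr, the receptor's repressor, read 7.05, 7.19 and 6.25 in KO 8 h cells, against 5.22, 4.58 and 0.85 in KO 3 h cells, with every 3 h value under the 40th percentile and a rise of at least 1.21. Tiparp, another feedback regulator, read 13.68, 13.66 and 12.87 in KO 8 h cells, against 12.59, 12.57 and 11.01 in KO 3 h cells (1.35, SE 0.374, adjusted p = 0.0124). Replicate 3 was the lowest array in both groups for all 3 genes. The receptor itself, Ahr, read 12.99, 13.25 and 12.65 in KO 8 h cells, against 12.94, 12.75 and 12.34 in KO 3 h cells and was not called (adjusted p = 0.388). In all, 3 of 6 genes rose. None was called without KO 8 h replicate 1 or without KO 3 h replicate 3, and 1 without KO 8 h replicate 2. By gene, the arrays concerned were those of Cyp1a1 (KO 8 h replicate 1 or KO 3 h replicate 3), Ahrr (KO 8 h replicate 1 or 2 or KO 3 h replicate 3) and Tiparp (KO 8 h replicate 1 or 2 or KO 3 h replicate 3).

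Many genes of the B cell receptor pathway rose. Of 26 genes, 14 rose, 5 fell and 7 did not pass, with a median of 0.41. Fcgr2b, the inhibitory Fc receptor, read 11.96, 12.17 and 12.27 in KO 8 h cells, against 10.42, 10.99 and 10.96 in KO 3 h cells (1.34, SE 0.163, adjusted p = 6.33e-06). Cd79b, the receptor's signalling chain, read 13.09, 13.36 and 13.57 in KO 8 h cells, against 11.79, 12.54 and 12.56 in KO 3 h cells (1.05, SE 0.186, adjusted p = 0.000345), and the coreceptor component Cd81 rose by 1.12 (SE 0.168, adjusted p = 7.21e-05). Vav3, a guanine nucleotide exchange factor, read 9.26, 8.92 and 9.16 in KO 8 h cells, against 7.66, 7.44 and 6.81 in KO 3 h cells (1.81, SE 0.245, adjusted p = 2.29e-05), and Ptpn6, which encodes the phosphatase SHP-1, rose by 0.77 (SE 0.111, adjusted p = 4.56e-05). Every KO 8 h array of these genes was above the 3 h arrays. Fcrla, an Fc receptor-like protein of B cells, rose by 1.30. Against them Inpp5d, which encodes the phosphatase SHIP1, fell by 0.93 (SE 0.11, adjusted p = 4.28e-06), and Malt1, which links the receptor to NF-kB, fell by 1.15 (SE 0.205, adjusted p = 0.000346). From 0 to 3 h, in the comparison that shares the 3 h arrays, 20 of the 26 were called lower, where 21.7% of all genes were. The list mean over 0, 3, 8 and 16 h was 12.38, 11.23, 11.55 and 11.57. Without KO 8 h replicate 3, 9 of the 26 rose and 4 fell over the interval of 3 to 8 h. Tnfrsf13b, the receptor TACI, read 12.95, 12.68 and 12.93 in KO 8 h cells, against 11.45, 11.68 and 11.47 in KO 3 h cells, a 2.5-fold rise (1.32, SE 0.119, adjusted p = 1.71e-07).

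Among B lineage regulators 7 of 22 rose and 7 fell, and with arrays at one median 5 rose and 9 fell. Irf4, which drives activation and the plasma cell fate, read 12.73, 13.22 and 12.82 in KO 8 h cells, against 14.17, 13.91 and 14.07 in KO 3 h cells (-1.13, SE 0.238, adjusted p = 0.00162). Ebf1, an identity factor of B cells, fell by 1.49 (SE 0.313, adjusted p = 0.00147), and Prdm1, which encodes BLIMP1, fell by 0.72 (SE 0.221, adjusted p = 0.0225). Id3, an inhibitor of E proteins, read 11.41, 11.17 and 11.60 in KO 8 h cells, against 9.73, 9.97 and 9.93 in KO 3 h cells (1.52, SE 0.166, adjusted p = 1.74e-06), and the E protein Tcf4 rose by 0.998 (SE 0.156, adjusted p = 9.91e-05) while Tcf12 fell by 0.72 (SE 0.113, adjusted p = 9.87e-05). Groups were apart for each of these 6 genes. Id2, a relative of Id3, fell by 1.32 (SE 0.413, adjusted p = 0.0259). Of 13 genes of MHC class II presentation, 5 fell and 1 rose. H2-Ob, a modulator of peptide loading, read 11.84, 12.54 and 12.06 in KO 8 h cells, against 12.998, 13.26 and 13.15 in KO 3 h cells (-0.99, SE 0.149, adjusted p = 7.19e-05), and Ciita, the master regulator of the class, fell by 0.85 (SE 0.249, adjusted p = 0.0184). H2-Oa (-0.73) and H2-DMb2 (-0.68), of the same loading machinery, fell as well. The lineage regulators had 5 rising and 4 falling genes without KO 3 h replicate 1 or without KO 8 h replicate 3, 6 and 4 without KO 8 h replicate 1, and 6 and 3 without KO 3 h replicate 2. Removal of 1 array ended the calls of Prdm1 (KO 8 h replicate 1 or KO 3 h replicate 2 or 3), Id2 (KO 8 h replicate 2 or 3 or KO 3 h replicate 1 or 2), H2-DMb2 (KO 3 h replicate 2) and Ciita (KO 8 h replicate 1 or 3 or KO 3 h replicate 2). Without KO 3 h replicate 2, 2 of the class II genes fell and 1 rose.

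Genes of DNA replication and division moved in both directions. Of 40 DNA replication and nucleotide genes, 6 rose, 5 fell and 29 did not pass (median 0.13), so 27.5% were called beside 19.2% of all genes. With arrays at one median 4 rose and 5 fell. Of 22 mitosis genes 1 rose and 1 fell (9.1% called). Rfc4, a clamp loader subunit, read 9.95, 10.09 and 10.05 in KO 8 h cells, against 9.31, 9.48 and 9.29 in KO 3 h cells (0.67, SE 0.146, adjusted p = 0.00208), and Pola1, a polymerase subunit, rose by 0.75 (SE 0.199, adjusted p = 0.00958). Gins2, of the replicative helicase complex, rose by 0.82 and Dut, which keeps uracil out of DNA, by 0.71. Ppat, the first enzyme of purine synthesis, fell by 0.73 (SE 0.168, adjusted p = 0.00338). Mcm4, of the replicative helicase, read 10.39, 9.93 and 10.18 in KO 8 h cells, against 10.72, 10.62 and 10.57 in KO 3 h cells (-0.47, SE 0.16, adjusted p = 0.0406). From 8 to 16 h, sharing the 8 h arrays, 27 of the 40 were called higher, where 2.4% of all genes were. For 0, 3, 8 and 16 h the list averaged 9.90, 9.70, 9.83 and 10.80. Dependence on 1 array was seen for Pola1 (KO 8 h replicate 3), Gins2 (KO 8 h replicate 2 or KO 3 h replicate 2 or 3), Dut (KO 8 h replicate 1) and Mcm4 (KO 8 h replicate 2 or 3 or KO 3 h replicate 1 or 2 or 3). The replication list had 6 rising and 1 falling gene without KO 3 h replicate 1 or without KO 8 h replicate 2, 5 and 1 without KO 3 h replicate 3, and 4 and 2 without KO 8 h replicate 3. The 2 mitosis calls were Cdc20 and Birc5, and neither was made without KO 3 h replicate 1 or 3 or KO 8 h replicate 1. Cdc20 lost its call when any 1 of the 6 arrays was left out, and also with quantile normalization or arrays at one median.

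Of the G1 regulators, 4 of 19 rose and 1 fell, a balance that turned with arrays at one median, where 2 rose and 3 fell. Their called share was 26.3%, beside 19.2% of all genes. Cdk6, a kinase of early G1, read 11.96, 11.70 and 11.89 in KO 8 h cells, against 13.06, 12.66 and 12.50 in KO 3 h cells (-0.89, SE 0.168, adjusted p = 0.000613). Rbl2, a pocket protein of resting cells, read 9.60, 9.65 and 9.84 in KO 8 h cells, against 8.28, 8.64 and 8.86 in KO 3 h cells (1.10, SE 0.169, adjusted p = 8.45e-05), and the cyclin Ccne1 rose by 0.88 (SE 0.29, adjusted p = 0.0355). Cdkn1a, which encodes the inhibitor p21, rose by 1.13 (SE 0.369, adjusted p = 0.033) and Rbl1, another pocket protein, by 0.92. Genes of the resting state went both ways, with 4 of 22 rising and 5 falling. Il7r, the interleukin 7 receptor, read 9.80, 9.54 and 8.90 in KO 8 h cells, against 11.43, 11.26 and 10.85 in KO 3 h cells (-1.76, SE 0.398, adjusted p = 0.00279), and Pik3ip1, an inhibitor of PI3 kinase, fell by 1.63 (SE 0.359, adjusted p = 0.00224). Sesn3, a sestrin, rose by 0.79 (SE 0.155, adjusted p = 0.000839) and Ypel3 by 1.21 (SE 0.189, adjusted p = 9.92e-05). Zbtb20, a zinc finger repressor, fell by 1.14 (SE 0.196, adjusted p = 0.000245). Survival genes were mixed: of 19, 4 rose and 2 fell (31.6% called, beside 19.2% of all genes). Bcl2l2, a pro-survival member of the family, rose by 1.01. Bcl2, which protects resting lymphocytes, read 10.05, 9.96 and 10.33 in KO 8 h cells, against 8.79, 8.88 and 8.99 in KO 3 h cells (1.23, SE 0.215, adjusted p = 0.000308), while Mcl1, a short-lived relative, fell by 0.43 (SE 0.117, adjusted p = 0.0103) and Cflar, which encodes FLIP, fell by 0.83 (SE 0.155, adjusted p = 0.000522). Left-out arrays ended the calls for Ccne1 (KO 8 h replicate 1 or 2 or 3 or KO 3 h replicate 3), Cdkn1a (KO 8 h replicate 3 or KO 3 h replicate 1 or 2 or 3) and Mcl1 (KO 8 h replicate 3 or KO 3 h replicate 2). The G1 list had 2 rising genes and 1 falling without KO 3 h replicate 3 or KO 8 h replicate 3, and the survival list had the same counts without KO 3 h replicate 2.

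Some of the largest changes lay outside these lists. Vim, the intermediate filament vimentin, read 10.30, 10.52 and 10.21 in KO 8 h cells, against 13.39, 13.11 and 12.63 in KO 3 h cells, a 6.49-fold drop (-2.70, SE 0.294, adjusted p = 1.62e-06). Arhgap15, which turns off Rac, read 8.79, 8.93 and 9.33 in KO 8 h cells, against 10.98, 11.23 and 11.31 in KO 3 h cells (-2.16, SE 0.179, adjusted p = 6.34e-08). A second Arhgap15 probe set fell by 2.37, while the third rose by 1.75 (adjusted p = 0.0115 over all probe sets), so the probe sets of this gene disagreed. Pde2a, which degrades cyclic nucleotides, read 9.29, 9.59 and 9.81 in KO 8 h cells, against 11.60, 11.66 and 11.81 in KO 3 h cells (-2.12, SE 0.182, adjusted p = 9.42e-08), and Pde7b, which degrades cyclic AMP, fell by 2.14 (SE 0.603, adjusted p = 0.0137). The arrays of all 4 were well apart. Cacna1e, a subunit of a voltage-gated calcium channel, read 4.70, 5.76 and 7.03 in KO 8 h cells, against 8.84, 9.17 and 8.87 in KO 3 h cells, a drop of at least 2.70 with 2 of the 8 h arrays under the filter level (adjusted p = 2.14e-05 for the measured values). Inpp4b, a phosphoinositide phosphatase, fell by 2.73 (SE 0.915, adjusted p = 0.0384) and Plk2, a kinase, fell by 2.35 (SE 0.766, adjusted p = 0.0328). Abtb2 fell by 2.43 (SE 0.384, adjusted p = 0.000109) and Amz1, a metallopeptidase, fell by 2.28 (SE 0.428, adjusted p = 0.000546). Among rising genes, Acot7, an acyl-CoA thioesterase, read 10.15, 8.87 and 10.05 in KO 8 h cells, against 7.55, 6.52 and 7.48 in KO 3 h cells (2.51, SE 0.308, adjusted p = 7.84e-06). Psrc1, a protein of spindle microtubules, read 7.95, 8.29 and 9.65 in KO 8 h cells, against 4.53, 6.15 and 6.39 in KO 3 h cells, a rise of at least 2.59, and Fam168a one of at least 2.29. Acot7 was lowest on replicate 2 in both groups, and all 3 KO 8 h arrays of these genes exceeded the 3 h arrays. Single arrays mattered for Inpp4b (KO 8 h replicate 1 or 3 or KO 3 h replicate 1 or 2 or 3), Plk2 (KO 8 h replicate 1 or 2 or KO 3 h replicate 1 or 2 or 3) and Pde7b (KO 8 h replicate 3 or KO 3 h replicate 2).

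The letters CACGTG, the site of MYC and related factors and the same on both strands, stood in 16% of the promoters of falling genes and 8.86% of those of rising genes, beside 9.35% of all tested genes. GGAAA on either strand stood in 58.1%, 62.6% and 58.2% of the same sets. For TGACGTCA (the CRE) the shares were 3.65%, 2.78% and 2.74%, and for TGACTCA (AP-1) 3.93%, 4.05% and 4.35%. All are counts of letters in 250 bases. By list, CACGTG stood in 0 of 21 promoters of called ribosome biogenesis genes and in 5 of 14 of called immediate early genes. Over all tested members of these lists the shares were 6.25% and 24.2%. Of 33 immediate early promoters, 4 held TGACGTCA and 2 TGACTCA. Of 19 interferon list promoters, 0 and 5 did, and of 48 ribosome biogenesis promoters, 2 and 0. Binding of MYC was not tested.

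**Figure D4:**
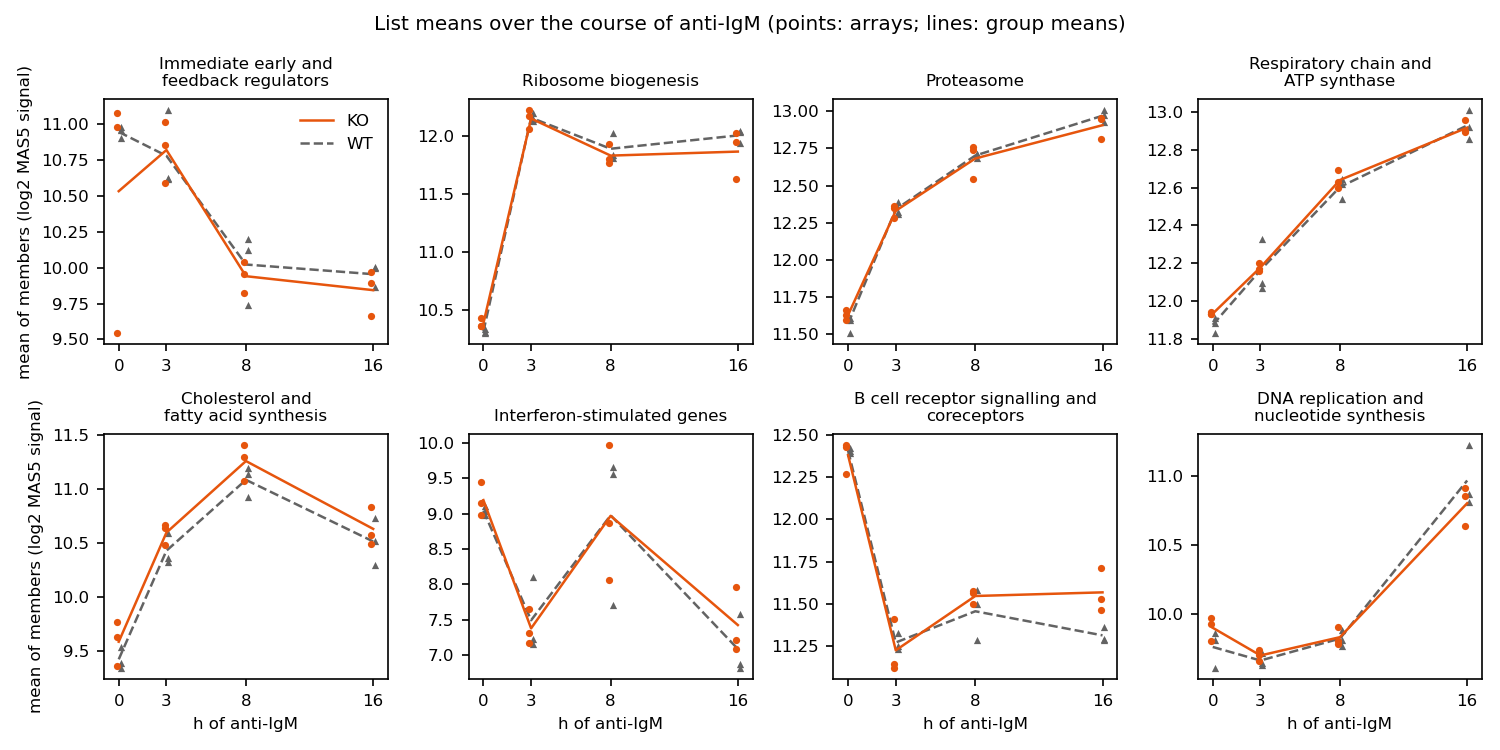
Mean of the tested members of 8 lists (y axis, log2 MAS5 signal, scaled to each list) over h of anti-IgM (x axis) in KO (circles, solid) and WT cells (triangles, dashed), 3 arrays a point in time. The interferon list stands at 7.38 at 3 h and 8.97 at 8 h in KO cells, and its KO arrays at 8 h spread between 8.06 and 9.97.

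The same interval was examined in WT cells, whose arrays are not shared. There 2273 genes (15.9%) were called, 1475 higher (10.3%) and 798 lower (5.57%). With arrays at one median the WT split was 839 and 940. WT replicate 2 carried Y-linked transcripts at all 4 times, unlike the 6 KO arrays, and without its arrays 1449 genes were called in WT cells. There were 1425 without WT 8 h replicate 1 and 1454 without WT 3 h replicate 2. Of the calls, 1811 were common, which is 65.9% of the KO calls and 79.7% of the WT calls, and all 1811 had one direction. Of the 2750 genes called in KO cells, 2720 (98.9%) had the same sign in WT cells, beside 75.1% of all genes. The WT difference was -2.38 (SE 0.237, adjusted p = 7.93e-07) for Cd274, -1.80 (SE 0.375, adjusted p = 0.00186) for Dusp1 and -1.01 (SE 0.297, adjusted p = 0.0223) for Myc. It was 2.49 (SE 0.799, adjusted p = 0.0356) for Usp18, 1.82 (SE 0.326, adjusted p = 0.000495) for Mvk and 0.83 (SE 0.102, adjusted p = 9.03e-06) for Psmb3. These lay on the same side of 0 as in KO cells.

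The difference between the 2 changes was tested directly, as KO 8 h minus 3 h less WT 8 h minus 3 h. No gene was called (0% of 14318, limma, smallest adjusted p = 0.9999), and 332 genes (2.32%) had an unadjusted p under 0.05. None was called in any alternative fit. A test that misses its threshold does not show that the genotypes changed alike. Of the 939 genes called in KO cells alone, 85 had an unadjusted p under 0.05 for the difference. The smallest p belonged to Hesx1, a homeobox factor, which read 3.94, 6.93 and 5.13 in KO 8 h cells, against 2.85, 2.70 and 2.89 in KO 3 h cells, mostly under the filter level. Anxa9, an annexin, read 6.89, 5.48 and 6.64 in KO 8 h cells, against 2.96, 2.04 and 3.83 in KO 3 h cells, with all its 3 h values and 1 of its 8 h values under that level. Among the next smallest p values were those of Obsl1, Meak7, Pax3, Serinc4, Speg and Wfdc21, none of them called for the difference. Oas1b, among the genes that rose most in KO cells, rose by at least 2.13 there (adjusted p = 0.00208 for the measured values) and differed by 0.40 (SE 0.475, adjusted p = 0.679) in WT cells, with an unadjusted p of 0.0145 for the measured difference of 1.78 and an adjusted p of 0.9999.

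**Figure D5:**
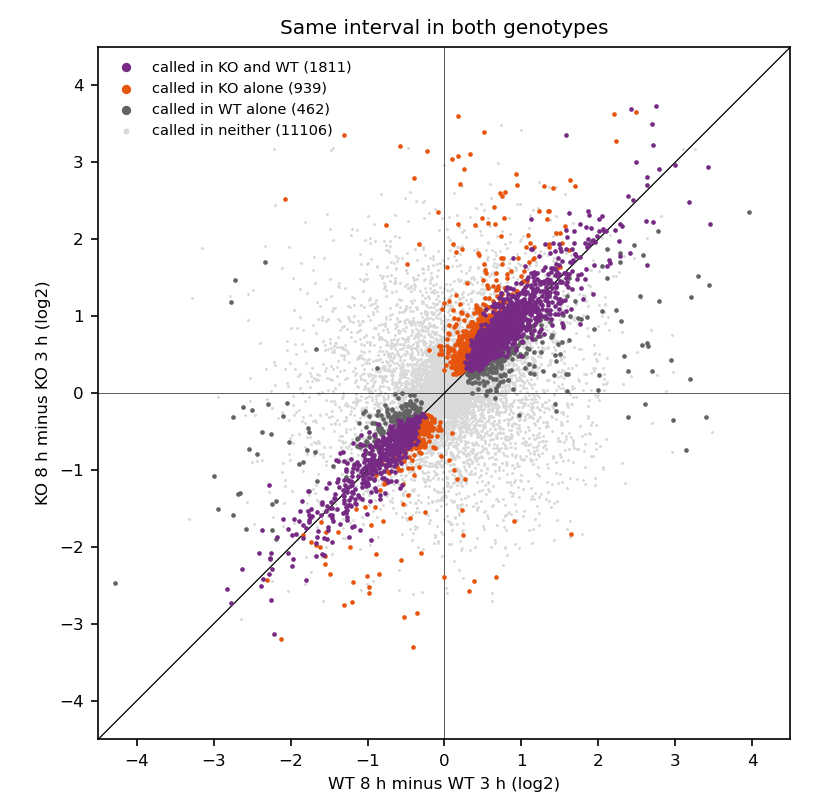
Each point is a gene, with WT 8 h minus WT 3 h on the x axis and KO 8 h minus KO 3 h on the y axis (log2; the diagonal marks equal change). The 1811 genes called in both lie near the diagonal, and 939 were called in KO cells alone and 462 in WT cells alone.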

How the data were processed

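RNA of bead-sorted splenic B cells was hybridised to Affymetrix mouse arrays, 24 arrays in 8 groups of 3. Per the labels, the deposited values are log2 MAS5 signals, scaled by the authors. The scaled trimmed mean was 500.0 on each array; no scanner files or detection calls were used here. Titles gave genotype, hour and replicate. Of 45101 probe sets, 64 controls were dropped, 34945 had 1 gene symbol, 932 several and 9160 none. Probe sets above their array's 40th percentile on at least 3 arrays were kept, and each gene was read by its brightest one, leaving 14318 genes. Group means over all 24 arrays were fitted with limma 3.58.1 (R 4.3.3, eBayes with trend, 16 residual degrees of freedom), checked on simulated data, with Benjamini-Hochberg adjustment. Where a dim group lay under the 40th percentile, values were raised to it and the difference given as "at least". Described genes were the 15 highest and 15 lowest called genes by that raised difference, whose arrays did not overlap, the 8 of smallest interaction p, and up to 4 called members of each list plus its best known ones. Further list members were named after their values were seen. Members and lists were chosen with earlier results of these data known. Promoters were RefSeq's (GRCm38.p6). Alternatives covered normalization, filter, block, moderation, minimum fold and left-out arrays. No 2 arrays were duplicates. The labels call replicates biological but name no animals, so p-values measure the spread between these samples.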

Additional observations from a re-analysis of the deposited data

How the results depend on the processing

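The number of arrays limits what could be called, and dim genes carry only bounds. Under the alternatives, the count of 2750 KO calls lay within 1.5 times except where given here. With a minimum change of 1.5-fold in the test itself, 164 KO and 120 WT genes were called. Leaving out 1 array gave 1934 to 2436 KO calls and 1425 to 2219 WT calls. Fitting only the compared groups gave 1386 WT calls, and leaving out the arrays with Y-linked transcripts gave 1449. The labels number replicates 1 to 3 in each group without saying what a number shares. Deviations of same-numbered KO 8 h and KO 3 h arrays correlated at 0.085, 0.185 and 0.148 over all genes. Over genes brighter than the median gene the values were 0.462, 0.477 and 0.632. Arrays of unlike number lay between -0.41 and -0.019 there. Each of these arrays correlated best with its own number in the other KO group, a hint from the data and not from the design. Between genotypes this did not always hold over all genes. WT 3 h replicate 1 correlated at 0.04 with KO 3 h replicate 2 and at 0.033 with KO 3 h replicate 1. Over the brighter genes these were 0.05 and 0.226, with its own number ahead. With the replicate number as a fixed block, 3887 KO, 3411 WT and 1507 KO 16 h minus 8 h genes were called. The KO change less the WT change gave 0 calls in every setting (limma), with 102 to 617 genes at an unadjusted p under 0.05. Of the 136 genes picked by the stated rule, none changed sign in 19 settings, 28 kept their side of the threshold in all, and 97 did so in all but the 1.5-fold minimum. The causes were not tested.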

Other observations

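Lysosomal genes were outside the account above. Of 21 proton pump and hydrolase genes, 2 rose, 2 fell and 17 did not pass in KO 8 h cells against KO 3 h cells. The called share of 19.0% was near the 19.2% of all genes. Lipa, which encodes the acid lipase that frees cholesterol from its esters, rose by 1.71 (SE 0.184, limma adjusted p = 1.51e-06). Gusb, a hydrolase of sugars, rose by 0.76 (SE 0.141, limma adjusted p = 0.000512). The pump subunits Atp6v0d1 and Atp6v1d fell, with log2 differences of -0.64 and -0.37. The call of Atp6v1d was lost without KO 3 h replicate 1 or without KO 8 h replicate 1 or 3. Of 34 splicing factors, 2 rose, Sf3a1 (0.65) and Snrpc (0.43), and 2 fell, Srsf2 (-0.30) and Tra2a (-0.65). Their called share was 11.8%, under that of all genes. Of 24 cytokine receptor and SOCS genes, 1 rose and 4 fell, a called share of 20.8% that was also near that of all genes. Among those that fell were Il4ra (-0.77), Il21r (-0.86) and Socs3, an inhibitor of JAK signalling (-1.63, SE 0.496, limma adjusted p = 0.0224). The call of Socs3 was lost without KO 3 h replicate 1 or 2 or KO 8 h replicate 3, and without KO 3 h replicate 1 or 2 the list had 1 rising and 2 falling genes. Srsf2 lost its call when any 1 of the 6 arrays was left out, Snrpc without KO 8 h replicate 1 and Tra2a without KO 8 h replicate 3. Of the splicing factors, 1 rose and 1 fell without KO 8 h replicate 1, and 2 rose and none fell without KO 8 h replicate 3.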
